A study of Bos taurus with 6 samples.

Results

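The tubulin genes and the genes of the enzymes that modify tubulin were examined in the testes of immature and mature Wandong cattle, a native breed of Anhui, China. All rows of the deposited gene table were taken whose symbol begins with TUBA, TUBB, TUBG, TUBD or TUBE, with TTLL or AGBL followed by a digit, or equals AGTPBP1, which gave 40 of 47249 genes. The 40 genes comprised 8 alpha-tubulins, 8 beta-tubulins, 2 gamma-tubulins, 1 delta-tubulin, 1 epsilon-tubulin, 5 proteins of the gamma-tubulin complex (TUBGCP2 to TUBGCP6), 10 tubulin tyrosine ligase-like enzymes (TTLL) and 5 cytosolic carboxypeptidases (AGBL1, AGBL2, AGBL3, AGBL5 and AGTPBP1). All 40 were matched by symbol to protein-coding genes of the RefSeq annotation of ARS-UCD2.0 and overlapped the locus of the same symbol there. TTLL3, TTLL11 and TTLL13 were not among the rows found and were not analysed here.

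The samples were untreated testes, taken at slaughter from 3 immature calves at the age of 3 months and from 3 mature bulls at 3 years, with 1 library of ribosomal RNA-depleted total RNA per animal. The values are FPKM (sequenced fragments scaled to transcript length and to the mapped fragments of the library), which allow levels of different genes to be compared per length within a library. Bulls were compared with calves on the log2(FPKM + 1) scale with limma, and a gene was called where the adjusted p was below 0.05 and the log2 fold change was 1 or more in size, with positive values higher in bulls and SE standing for the standard error. Adding 1 understates the fold change of low genes. The tables hold no read counts, the depth behind a value is therefore unknown, and the spread between animals is the error given.

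The label of 1 library was in doubt. In calf 3, the summed FPKM of 4 oligodendrocyte markers (MBP, MOBP, MOG and MAG) was 6790.4, against 3.31 in calf 1, 4.15 in calf 2 and 3.82 to 8.77 in bulls. All 4 astrocyte markers and all 6 neuron markers were also highest in calf 3, with sums of 2690.0 and 852 against 59.7 to 148 and 7.25 to 16.4 in the other libraries. The summed markers of Leydig cells were 0.502 in calf 3 and 1141 to 2738 elsewhere, and CYP11A1 and the 3 rows of CYP17A1 were listed at 0. Of the 7 Sertoli cell markers, FSHR, GATA4 and WT1 were listed at 0 in calf 3, AMH and INHA were below 1, and the sum of 437 was mostly CLU. Several tubulin genes are known for the brain, so the log2 fold change of each gene of the 40 that was tested is given with all 6 libraries and without the library labelled calf 3.

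Microtubules are built from dimers of alpha- and beta-tubulin, each encoded by a family of genes whose protein products, the isotypes, differ mainly in their C-terminal tails. Gamma-tubulin and its partners start new microtubules, and delta- and epsilon-tubulin serve the triplet microtubules of centrioles. TTLL enzymes add glutamate or glycine chains to the tails and cytosolic carboxypeptidases take glutamates away. In the mature testis, microtubules form the meiotic spindles, the manchette that shapes the spermatid head and the axoneme of the sperm tail, where tubulin is densely glutamylated and glycylated.

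The enzymes that add or remove glutamate and glycine were mostly higher in bulls, and the tubulin isotypes differed in direction. TUBA3E, TUBA8 and TUBB4B were higher in bulls, whereas TUBA1A, TUBA1B, TUBA1C and TUBB were lower. Of the 40 genes, 35 passed a filter that required 3 or more libraries at 1 FPKM or above. Of these, 17 were called higher and 4 lower in bulls, or 48.6% and 11.4%, against a background of 35.7% and 9.61% of the 18115 genes tested (45.3% in either direction). Without calf 3, 22 were called higher and 6 lower, against 37.9% and 13.6% of all genes (51.5% in either direction). The median log2 fold change was 1.13 over the 35 genes and 0.43 over all genes tested. After quantile normalization, these medians were 0.50 and −0.26, and 15 of the 35 genes were called higher and 5 lower, against 21.1% and 25.1% of all genes (46.2% in either direction). The FPKM of all 3 bulls lay above that of all 3 calves in 19 of the 35 genes (background 46.1%) and below it in 6 (background 21.3%, or 67.4% either way). Without calf 3, these counts were 24 (background 53.5%) and 9 (background 30.9%, or 84.4% either way). TTLL2, TTLL6, TTLL8, TTLL9, TTLL10 and AGBL2 reached the filter only through the bulls, so that a difference was built into their entry, as for 19.7% of all genes tested.

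AGBL1, TUBA1D, TUBAL3, TUBB1 and TUBB4A did not pass the filter and were not tested. AGBL1 encodes a carboxypeptidase that shortens glutamate chains and ranged from 0.0118 to 0.0829 in calves and 0.128 to 0.402 in bulls. TUBA1D, an alpha-tubulin gene, lay at 0.598 to 1.002 in calves and 0.156 to 0.338 in bulls. Bulls lay above calves in AGBL1 and below them in TUBA1D, at levels around or under 1 FPKM. TUBAL3, an alpha-tubulin-like gene, ranged from 0.0130 to 0.259 in calves and 0.103 to 0.144 in bulls. TUBB1, the beta-tubulin known from platelets, was the least abundant of the 40 genes in bulls, at 0.0700 to 0.224 in calves and 0.0195 to 0.0396 in bulls. TUBB4A is described with the beta-tubulins, since it was high in calf 3.

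**Figure D1:**
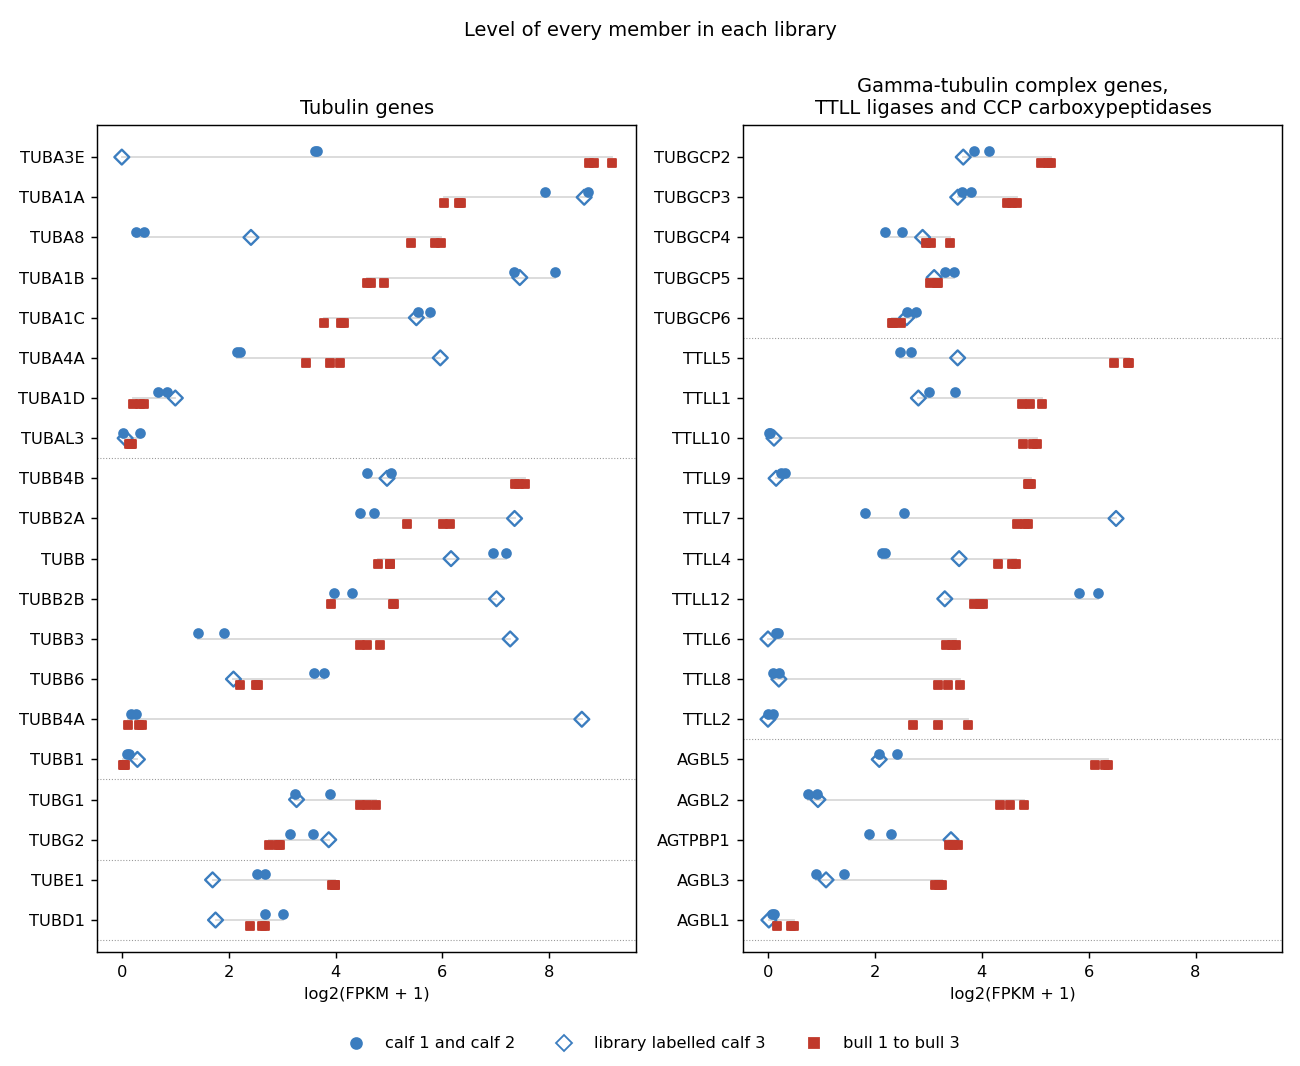
Level of each of the 40 genes in each library, as log2(FPKM + 1) on the horizontal axis, with tubulins on the left and the gamma-tubulin complex, TTLL and carboxypeptidase genes on the right. Filled circles are calf 1 and calf 2, open diamonds the library labelled calf 3 and squares the 3 bulls. In 19 of the 35 genes tested the 3 squares lie to the right of all calf symbols (background 46.1% of all genes tested). TUBB4A, TUBB3, TTLL7 and TUBA4A stand apart by their high open diamond.

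Markers of germ cells and of Sertoli cells moved with the groups. The summed FPKM of 5 markers of elongating spermatids (PRM1, TNP1, TNP2, ODF1 and AKAP4) lay between 1.27 and 1.38 in calves and between 13167 and 14863 in bulls, with ODF1 listed at 0 in calf 1 and calf 3. The 5 markers of round spermatids summed to 0.330 to 2.46 in calves and 274 to 306 in bulls, with ACR at 0 in calf 1 and calf 3 and ACRV1 at 0 in calf 2 and calf 3. The 6 markers of spermatocytes summed to 2.81 to 24.1 and 167 to 195, and none was at 0. The 4 markers of spermatogonia (DAZL, DDX4, KIT and NANOS3) summed to 9.68 to 65.6 and 242 to 259, with DAZL at 0 in calf 3. All 4 germ cell sums were higher in every bull than in every calf, but KIT alone went the other way, at 8.90 to 16.5 in calves and 5.06 to 7.03 in bulls. Those of Sertoli cells summed to 2811 and 2678 in calf 1 and calf 2 and to 378 to 395 in bulls. Among markers of multiciliated epithelium, FOXJ1, a factor of motile cilia that male germ cells also express, was at 0.220 to 0.251 in calves and 8.57 to 11.3 in bulls, whereas MCIDAS and CCNO were below 0.1 in all 6 libraries. The part of these shifts in the results for the tubulin genes was not tested. In bulk tissue, fewer cells of a type and less RNA per cell cannot be told apart.

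Among the alpha-tubulins, the leading isotype differed between the groups, while the ranges of their total, in FPKM as deposited, overlapped. TUBA3E (ENSBTAG00000030979, chromosome 17, 72342836 to 72348560), of a subfamily of alpha-tubulins known from the testis, was at 11.7 FPKM in calf 1 and 11.2 in calf 2, was listed at 0 in calf 3, and reached 425, 574 and 457 in bulls 1 to 3. Its log2 fold change was 6.49 (SE 1.01, adjusted p = 0.00224), and 5.28 (adjusted p = 1.39e-06) without calf 3. TUBA8 (ENSBTAG00000018530, chromosome 5, 109375096 to 109394480), a divergent alpha-tubulin, was at 0.210, 0.331 and 4.34 in calves 1 to 3 and 56.8, 41.4 and 61.6 in bulls 1 to 3. All 3 bulls lay far above the calves in TUBA8 (log2 fold change 4.71, SE 0.60, adjusted p = 0.000963, and 5.40 without calf 3), and calf 3 was the highest of the calves.

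TUBA1A, TUBA1B and TUBA1C, alpha-tubulins of many somatic tissues, were lower in bulls. TUBA1A (ENSBTAG00000001489, chromosome 5, 30656035 to 30660484) was found at an FPKM of 241, 421 and 401 in calves 1 to 3 and 80.7, 64.4 and 77.9 in bulls 1 to 3. In TUBA1A the lowest calf lay above the highest bull, and calf 3 lay between calf 1 and calf 2 (log2 fold change −2.20, SE 0.28, adjusted p = 0.000889). TUBA1B (ENSBTAG00000012244, chromosome 5, 30699220 to 30703581), the broadly expressed isotype, was at 162, 273 and 173 in calves 1 to 3 and 24.2, 22.9 and 28.98 in bulls 1 to 3. It had the largest decrease of the 35 genes tested (log2 fold change −2.92, SE 0.25, adjusted p = 0.000182). TUBA1C (ENSBTAG00000039992, chromosome 5, 30554546 to 30572546) was at 45.6, 53.8 and 44.6 in calves 1 to 3 and 12.7, 16.2 and 16.9 in bulls 1 to 3 (log2 fold change −1.59, SE 0.17, adjusted p = 0.000484). Without calf 3 these log2 fold changes were −2.09, −3.01 and −1.64, and all remained called. The Sertoli cell markers given above were also lower in bulls than in calf 1 and calf 2, and their part in this result was not tested. The TUBA1 genes are nearly identical in their coding sequence, so reads may have been split between them, and how reads with several matches were counted is not given in the sources used here.

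TUBA4A (ENSBTAG00000030974, chromosome 2, 107195206 to 107203963), an alpha-tubulin encoded without the C-terminal tyrosine, was called only without calf 3. Its FPKM was 3.44, 3.65 and 61.2 in calves 1 to 3 and 13.96, 9.95 and 16.001 in bulls 1 to 3. Calf 3 was the highest of the 6 libraries and calf 1 and calf 2 were the lowest. With all libraries the log2 fold change of 0.37 was smaller than its standard error of 1.05 (adjusted p = 0.783), and without calf 3 it was 1.63 (adjusted p = 0.000572). The locus of TUBA4A overlaps STK16.

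As shares of the summed FPKM of the 8 alpha-tubulins, TUBA3E made up 2.51%, 1.47% and 0% in calves 1 to 3 and 69.2%, 78.7% and 69.4% in bulls 1 to 3. The difference of the group means was 71.1 percentage points (two-sided exact permutation test, p = 0.1, which is the lowest that 3 libraries against 3 can give, and 0.1 after adjustment over the 2 isotypes tested). Without calf 3 it was 70.4 points (exact p = 0.2, again the lowest possible). TUBA3E was chosen for this test as the alpha-tubulin with the largest mean FPKM in these bulls. Its high share in bulls was thus built into the choice, and the p is not independent of it. TUBA1A, TUBA1B and TUBA1C together made up 96.6%, 97.9% and 90.3% in the calves and 19.2%, 14.2% and 18.8% in the bulls. The summed FPKM itself was 465, 764 and 686 in calves 1 to 3 and 613, 729.6 and 659 in bulls 1 to 3. The sums of the bulls lay within the range of the calves, also without calf 3. The summed FPKM of all genes differed between libraries, at 1066180, 1098720 and 587066 in calves 1 to 3 and 732130 to 776839 in bulls. The overlap of the alpha-tubulin sums therefore holds for FPKM as deposited, and another scaling of these sums was not tested.

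**Figure D2:**
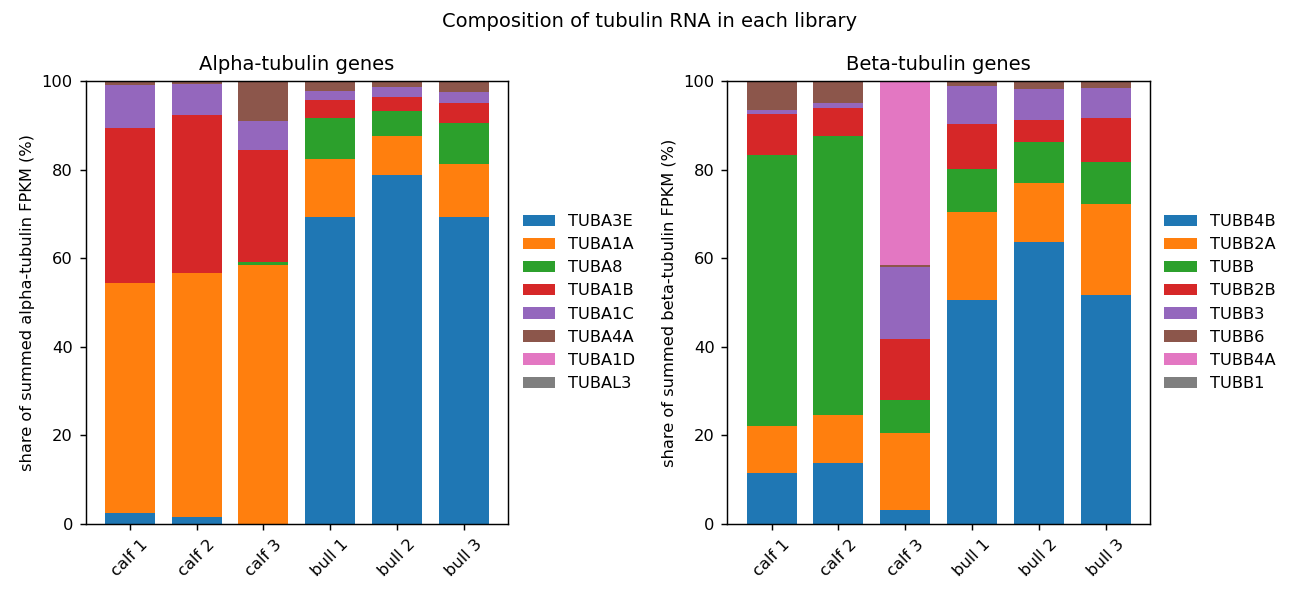
Composition of alpha-tubulin RNA (left) and beta-tubulin RNA (right) in each library, as the share of each gene in the summed FPKM of its family, in percent. TUBA3E takes 69.2% to 78.7% of the alpha-tubulin sum in bulls and at most 2.51% in calves, and TUBB4B takes 50.6% to 63.6% of the beta-tubulin sum in bulls. In the library labelled calf 3, TUBA1A, TUBA1B and TUBA1C hold 90.3% of alpha-tubulin and TUBB4A holds 41.6% of beta-tubulin.

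Among the beta-tubulins, TUBB4B was higher and TUBB lower in bulls. TUBB4B (ENSBTAG00000052518, chromosome 11, 106254513 to 106259949), the class IVb isotype known from cilia and flagella, had an FPKM of 23.1, 31.8 and 30.2 in calves 1 to 3 and 163, 186 and 173 in bulls 1 to 3, or 28.3 ± 4.64 (SD) over the 3 calves and 174 ± 11.3 (SD) over the 3 bulls. The calves lay close together in TUBB4B, and all bulls lay above them (log2 fold change 2.59, SE 0.18, adjusted p = 8.42e-05). TUBB (ENSBTAG00000006969, chromosome 23, 28298359 to 28302018), the widely expressed class I isotype, was at 122, 146 and 70.5 in calves 1 to 3 and 31.5, 26.9 and 31.5 in bulls 1 to 3. All bulls lay below all calves, and calf 3 was the lowest calf (log2 fold change −1.82, SE 0.29, adjusted p = 0.00261). Without calf 3, the log2 fold changes were 2.64 for TUBB4B and −2.12 for TUBB. The locus of TUBB4B overlaps FAM166A.

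The share of TUBB4B in the summed FPKM of the 8 beta-tubulins was 11.6%, 13.7% and 3.22% in calves 1 to 3 and 50.6%, 63.6% and 51.6% in bulls 1 to 3. The group means differed by 45.8 percentage points (two-sided exact permutation test, p = 0.1, the lowest possible, and 0.1 adjusted). Without calf 3 the difference was 42.6 points (exact p = 0.2, the lowest possible). TUBB4B was likewise chosen as the beta-tubulin with the largest mean FPKM in these bulls, so its high share there was built into the choice. TUBB held 61.1% and 62.9% in calf 1 and calf 2, 7.53% in calf 3 and 9.21% to 9.77% in bulls. The ratio of TUBB4B to TUBB, computed after the values were seen, was 0.190, 0.218 and 0.428 in calves 1 to 3 and 5.18, 6.91 and 5.48 in bulls 1 to 3. Within each library, TUBB exceeded TUBB4B in all calves and TUBB4B exceeded TUBB in all bulls.

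In the remaining beta-tubulins calf 3 stood apart from the other calves. TUBB4A (ENSBTAG00000021013, chromosome 7, 17981998 to 17988028), the class IVa isotype known from brain and oligodendrocytes, had an FPKM of 0.130, 0.207 and 389 in calves 1 to 3 and 0.0862, 0.296 and 0.250 in bulls 1 to 3. It was high in calf 3 and near 0 in the other 5 libraries, and did not pass the filter. TUBB3 (ENSBTAG00000023730, chromosome 18, 14708940 to 14717352), the class III isotype known from neurons, was at 1.70, 2.77 and 153 in calves 1 to 3 and 27.3, 21.01 and 23.1 in bulls 1 to 3. Calf 3 was highest, the bulls intermediate and calf 1 and calf 2 lowest in TUBB3. Its log2 fold change was 1.09 (adjusted p = 0.578) with all libraries and 2.95 (SE 0.19, adjusted p = 3.68e-05) without calf 3. The markers of oligodendrocytes, astrocytes and neurons given above were high in calf 3 as well, and their part in these values was not tested.

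TUBB2A and TUBB2B, near-identical class II isotypes abundant in neurons, were also highest in calf 3. TUBB2A (ENSBTAG00000048485, chromosome 23, 50525012 to 50528874) was at 21.02, 25.5 and 162 in calves 1 to 3 and 63.8, 39.4 and 69.3 in bulls 1 to 3. The log2 fold change of TUBB2A was 0.32 (adjusted p = 0.755), and without calf 3 it was 1.24 (adjusted p = 0.00473), which is a call. TUBB2B (ENSBTAG00000054330, chromosome 23, 50489737 to 50494257) was at 18.7, 14.7 and 128 in calves 1 to 3 and 33.03, 14.05 and 32.9 in bulls 1 to 3. In TUBB2B, bull 2 lay below both calf 1 and calf 2, and the gene was not called with all libraries (−0.40, adjusted p = 0.715) or without calf 3 (0.56, adjusted p = 0.224). Reads of the pair may have been split between them, and both rows overlap that of BPHL. TUBB4A, TUBB3, TUBB2A and TUBB2B together made up 88.9% of beta-tubulin in calf 3, 20.9% and 18.6% in calf 1 and calf 2, and 25.6% to 38.5% in bulls.

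TUBB6 (ENSBTAG00000046337, chromosome 24, 42799984 to 42808150), the class V isotype, was at 12.7, 11.1 and 3.26 in calves 1 to 3 and 3.63, 4.70 and 4.86 in bulls 1 to 3. Calf 1 and calf 2 were the highest and calf 3 the lowest of the 6 libraries. The log2 fold change was −0.73 (adjusted p = 0.233) with all libraries, and −1.26 (adjusted p = 0.000583) without calf 3, where TUBB6 was called lower in bulls.

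Of the gamma-tubulins, which start new microtubules, TUBG1 was called higher and TUBG2 was not called. TUBG1 (ENSBTAG00000048152, chromosome 19, 42676073 to 42680834) was found at an FPKM of 8.44, 13.9 and 8.65 in calves 1 to 3 and 25.9, 20.9 and 22.9 in bulls 1 to 3. All bulls lay above all calves in TUBG1 (log2 fold change 1.13, SE 0.23, adjusted p = 0.00677), which was called also without calf 3 (1.03) but not after quantile normalization (0.52, adjusted p = 0.104) or after centring on a common median (0.63, adjusted p = 0.0505). TUBG2 (ENSBTAG00000030347, chromosome 19, 42720105 to 42725012) was at 7.87, 10.9 and 13.6 in calves 1 to 3 and 6.74, 6.56 and 5.73 in bulls 1 to 3. All bulls lay below all calves in TUBG2, but its log2 fold change of −0.66 (adjusted p = 0.0490, and −0.49 without calf 3) was under the size required for a call, whereas −1.19 after quantile normalization (adjusted p = 0.00547) and −1.15 after centring (adjusted p = 0.00607) were not. The ratio of TUBG1 to TUBG2, which a linear scaling of a library leaves as it is and which was chosen after the values were seen, was 1.07, 1.27 and 0.634 in calves 1 to 3 and 3.85, 3.19 and 3.998 in bulls 1 to 3. The ratio was higher in every bull than in every calf. The pair lie 39.3 kb apart on chromosome 19, and TUBG1 overlaps RETREG3.

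Of the tubulins of centrioles, TUBE1 was higher in bulls and TUBD1 was not called. TUBE1 (ENSBTAG00000013837, chromosome 9, 38335923 to 38366634), epsilon-tubulin, had an FPKM of 4.77, 5.44 and 2.25 in calves 1 to 3 and 14.3, 14.9 and 14.9 in bulls 1 to 3 (log2 fold change 1.67, SE 0.29, adjusted p = 0.00349, and 1.37 without calf 3). The bulls lay within a narrow range, and the calves lay below them, with calf 3 lowest. TUBD1 (ENSBTAG00000001290, chromosome 19, 10816976 to 10840892), delta-tubulin, was at 5.39, 7.08 and 2.37 in calves 1 to 3 and 5.45, 5.15 and 4.30 in bulls 1 to 3. The bulls lay between calf 3 and calf 2 in TUBD1, with a log2 fold change of 0.09 (adjusted p = 0.843) that was −0.27 (adjusted p = 0.188) without calf 3. The locus of TUBE1 overlaps FAM229B. Of the transcripts of TUBE1 tested, only an assembled one, described below, was called higher. It starts at 38335923, whereas the annotated transcripts start at 38345563 or 38345783.

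Of the 5 further proteins of the gamma-tubulin complex, 1 was called higher and none lower in bulls (background 35.7% and 9.61%). TUBGCP2 and TUBGCP3 form the small complex with gamma-tubulin, and TUBGCP4, TUBGCP5 and TUBGCP6 join them in the ring. TUBGCP2 (ENSBTAG00000006395, chromosome 26, 25714368 to 25732401) was called higher, with an FPKM of 11.6 to 16.5 in calves and 33.4 to 38.3 in bulls (log2 fold change 1.33, SE 0.17, adjusted p = 0.00108, and 1.22 without calf 3). TUBGCP2 was not called after quantile normalization (0.64, adjusted p = 0.0285) or centring (0.84, adjusted p = 0.00687), both under the size required. TUBGCP3 (10.7 to 12.8 in calves and 21.1 to 24.2 in bulls) and TUBGCP4 (3.57 to 6.43 in calves and 6.75 to 9.58 in bulls) had log2 fold changes of 0.90 and 0.60, or 0.85 and 0.79 without calf 3, and were not called in either fit. The rows of TUBGCP2, TUBGCP4 and TUBGCP6 overlap those of SORCS3, ZSCAN29 and HDAC10.

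TUBGCP5 and TUBGCP6 had negative log2 fold changes and were not called. TUBGCP5 (ENSBTAG00000014714, chromosome 2, 1232958 to 1284056) was at 8.93, 10.1 and 7.63 in calves 1 to 3 and 7.90, 8.08 and 7.13 in bulls 1 to 3, and the groups overlapped (log2 fold change −0.18, SE 0.17, adjusted p = 0.405, and −0.27 without calf 3). TUBGCP6 (ENSBTAG00000000650, chromosome 5, 119589228 to 119612001) was at 5.04, 5.84 and 5.04 in calves 1 to 3 and 4.09, 3.96 and 4.58 in bulls 1 to 3. All its bulls lay below all calves, by less than the size required for a call (log2 fold change −0.27, SE 0.16, adjusted p = 0.198, and −0.30 without calf 3). The ratio of TUBGCP2 to TUBGCP5, chosen after the values were seen, was 1.51, 1.63 and 1.52 in calves 1 to 3 and 4.65, 4.13 and 5.37 in bulls 1 to 3. The calves lay close together in this ratio and all bulls lay above them.

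Of the 10 TTLL enzymes, 8 were called higher and none lower in bulls (background 35.7% and 9.61%), and TTLL7 and TTLL12 were not called. Of the 8, TTLL2, TTLL6, TTLL8, TTLL9 and TTLL10 reached the filter only through the bulls, so that only the direction of TTLL1, TTLL4 and TTLL5 was not built into their entry. The counts were the same after quantile normalization (background 21.1% and 25.1%). Without calf 3, 9 were called higher and TTLL12 lower (background 37.9% and 13.6%). The summed FPKM of the family was 73.5, 95.8 and 127 in calves 1 to 3 and 278, 267 and 291 in bulls 1 to 3, so that all bulls lay above all calves.

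Among the glutamylases, which build glutamate chains on tubulin, TTLL9 and TTLL5 had the largest log2 fold changes of FPKM + 1. Their rank above TTLL6 and TTLL2 can depend on the 1 that was added. Over 16 alternative settings, the log2 fold change was at most 4.09 for TTLL5, 5.87 for TTLL6, 6.15 for TTLL2 and 6.71 for TTLL9. TTLL5 thus did not keep its rank above TTLL6 and TTLL2 in all of them. TTLL9 (ENSBTAG00000005937, chromosome 13, 61413129 to 61463663), known for the sperm flagellum, had an FPKM of 0.178, 0.255 and 0.111 in calves 1 to 3 and 29.2, 28.7 and 27.97 in bulls 1 to 3. TTLL9 was below 0.3 in all calves and nearly equal among the bulls (log2 fold change 4.65, SE 0.16, adjusted p = 6.64e-06, and 4.61 without calf 3). It reached the filter only through the bulls, so that its direction was built into its entry. TTLL5 (ENSBTAG00000025403, chromosome 10, 86918978 to 87207088), a glutamylase of alpha-tubulin, was at 4.53, 5.37 and 10.7 in calves 1 to 3 and 106, 88.4 and 107 in bulls 1 to 3. It was the most abundant TTLL gene in every bull and held 33.1% to 38.1% of the summed TTLL FPKM there (log2 fold change 3.76, SE 0.31, adjusted p = 0.000154, and 4.09 without calf 3). This level is a sum over transcripts, of which TTLL5-201 and TTLL5-203 cover separate parts of the locus, so level and share may be overstated. TTLL5-201 alone, at 46.6, 41.99 and 50.2 in bulls 1 to 3, still exceeded every other TTLL gene there. TTLL1 (ENSBTAG00000012030, chromosome 5, 113827081 to 113862433), the catalytic subunit of a glutamylase complex, ranged from 6.03 to 10.3 in calves and 26.1 to 33.9 in bulls (log2 fold change 1.82, SE 0.23, adjusted p = 0.000855, and 1.68 without calf 3). TTLL4 (ENSBTAG00000018415, chromosome 2, 106656154 to 106706020), which starts chains mainly on beta-tubulin, ranged from 3.41 to 10.9 in calves and 18.9 to 23.997 in bulls and overlaps STK36. Its log2 fold change was 1.87 (adjusted p = 0.0100), and 2.34 without calf 3, which was the highest calf.

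TTLL6 and TTLL2 were near 0 in calves and reached the filter only through the bulls, so that their direction was built into their entry. TTLL6 (ENSBTAG00000009332, chromosome 19, 37730040 to 37765778), which lengthens chains on axonemes, was at 0.104 and 0.139 in calf 1 and calf 2, was listed at 0 in calf 3 and lay between 9.10 and 10.5 in bulls. TTLL2 (ENSBTAG00000031481, chromosome 9, 101980278 to 101992479), a little studied member of the family, was listed at 0 in calf 1 and calf 3, was at 0.0640 in calf 2 and lay between 5.60 and 12.4 in bulls. Their log2 fold changes were 3.32 (adjusted p = 1.77e-05) and 3.19 (adjusted p = 0.000194), and without calf 3 they were 3.27 and 3.17.

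TTLL7 (ENSBTAG00000003322, chromosome 3, 60110693 to 60257583), the beta-tubulin glutamylase known from neurons, had an FPKM of 2.52, 4.84 and 90.3 in calves 1 to 3 and 24.4, 28.1 and 27.1 in bulls 1 to 3. Calf 3 was the highest of the 6 libraries, and all bulls lay above calf 1 and calf 2. With all libraries its log2 fold change of 1.16 had a standard error of 1.20 (adjusted p = 0.448), and without calf 3 it was 2.60 (SE 0.22, adjusted p = 0.000116). TTLL7 held 70.99% of the summed TTLL FPKM in calf 3, 3.42% and 5.06% in calf 1 and calf 2, and 8.77% to 10.5% in bulls.

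The glycylases among the TTLL genes found, TTLL10 and TTLL8, add glycine to axonemal tubulin, and both were higher in bulls. Both reached the filter only through the bulls, so that this direction was built into their entry. TTLL10 (ENSBTAG00000018028, chromosome 16, 51299216 to 51330259), which lengthens glycine chains, had an FPKM of 0.0150, 0.0315 and 0.0810 in calves 1 to 3 and 29.98, 26.2 and 31.6 in bulls 1 to 3. It was below 0.1 in all calves and had the largest increase among the enzymes (log2 fold change 4.86, SE 0.16, adjusted p = 6.82e-06, and 4.88 without calf 3). TTLL8 (ENSBTAG00000011098, chromosome 5, 119392379 to 119450153), which adds the initial glycine, ranged from 0.0738 to 0.159 in calves and 8.12 to 11.1 in bulls (log2 fold change 3.21, SE 0.17, adjusted p = 3.10e-05, and 3.23 without calf 3).

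TTLL12 (ENSBTAG00000001708, chromosome 5, 113942509 to 113959663), a member of the family for which no ligase activity on tubulin is established, had a negative log2 fold change. Its FPKM was 55.6, 71.1 and 8.91 in calves 1 to 3 and 13.5, 14.6 and 15.2 in bulls 1 to 3. Calf 1 and calf 2 lay above all bulls, and calf 3 lay below them. The log2 fold change was −1.15 (SE 0.75, adjusted p = 0.237) and not called, and without calf 3 it was −2.05 (SE 0.14, adjusted p = 3.92e-05). In calf 1 and calf 2, TTLL12 made up 75.6% and 74.3% of the summed TTLL FPKM, against 4.86% to 5.48% in bulls. TTLL1 lies 80.1 kb from TTLL12 on chromosome 5, and their ratio, chosen after the values were seen, was 0.127, 0.144 and 0.678 in calves 1 to 3 and 2.14, 2.31 and 1.72 in bulls 1 to 3.

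Of the 4 carboxypeptidases tested, 3 were called higher in bulls and none lower (background 35.7% and 9.61%), and AGBL2 among them reached the filter only through the bulls. The counts were the same after quantile normalization (background 21.1% and 25.1%), and all 4 were called higher without calf 3 (background 37.9%). AGBL5 (ENSBTAG00000013403, chromosome 11, 72566960 to 72585095), which removes the glutamate at the branch point of a chain, had an FPKM of 3.20, 4.30 and 3.23 in calves 1 to 3 and 81.6, 68.1 and 78.2 in bulls 1 to 3. It was the most abundant of the carboxypeptidases in every bull (log2 fold change 4.08, SE 0.17, adjusted p = 1.27e-05, and 4.02 without calf 3). AGBL2 (ENSBTAG00000051215, chromosome 15, 77451766 to 77481415), which shortens chains, was at 0.690, 0.883 and 0.912 in calves 1 to 3 and 26.6, 22.2 and 19.3 in bulls 1 to 3 (log2 fold change 3.69, SE 0.19, adjusted p = 2.64e-05, and 3.72 without calf 3). All calves were below 1 and all bulls above 19 in AGBL2.

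AGBL3 (ENSBTAG00000013976, chromosome 4, 98689147 to 98797826), another enzyme that shortens chains, ranged from 0.872 to 1.67 in calves and 7.75 to 8.57 in bulls (log2 fold change 2.06, SE 0.19, adjusted p = 0.000274, and 2.04 without calf 3). In calf 3, a transcript named AGBL3-AS1 made up 92.6% of the FPKM of AGBL3, and the row overlaps that of CYREN. AGTPBP1 (ENSBTAG00000001257, chromosome 8, 78856517 to 79055459), the enzyme whose loss in mice causes Purkinje cell degeneration and male sterility, was at 2.72, 3.91 and 9.73 in calves 1 to 3 and 9.44, 10.8 and 9.98 in bulls 1 to 3. Calf 3 lay among the bulls, and calf 1 and calf 2 below them. The log2 fold change was 0.93 (adjusted p = 0.0972), and without calf 3 it was 1.37 (adjusted p = 0.000467), which is a call.

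The summed FPKM of the 5 carboxypeptidases was 7.56, 10.8 and 15.02 in calves 1 to 3 and 126, 109.7 and 116 in bulls 1 to 3. The sums of the TTLL enzymes and of the carboxypeptidases both lay higher in every bull than in every calf, a difference of sums that was not tested. Within the carboxypeptidases, AGBL5 held 62.1% to 67.6% in bulls, whereas AGTPBP1 held 35.9% and 36.2% in calf 1 and calf 2 and 7.47% to 9.87% in bulls.

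**Figure D3:**
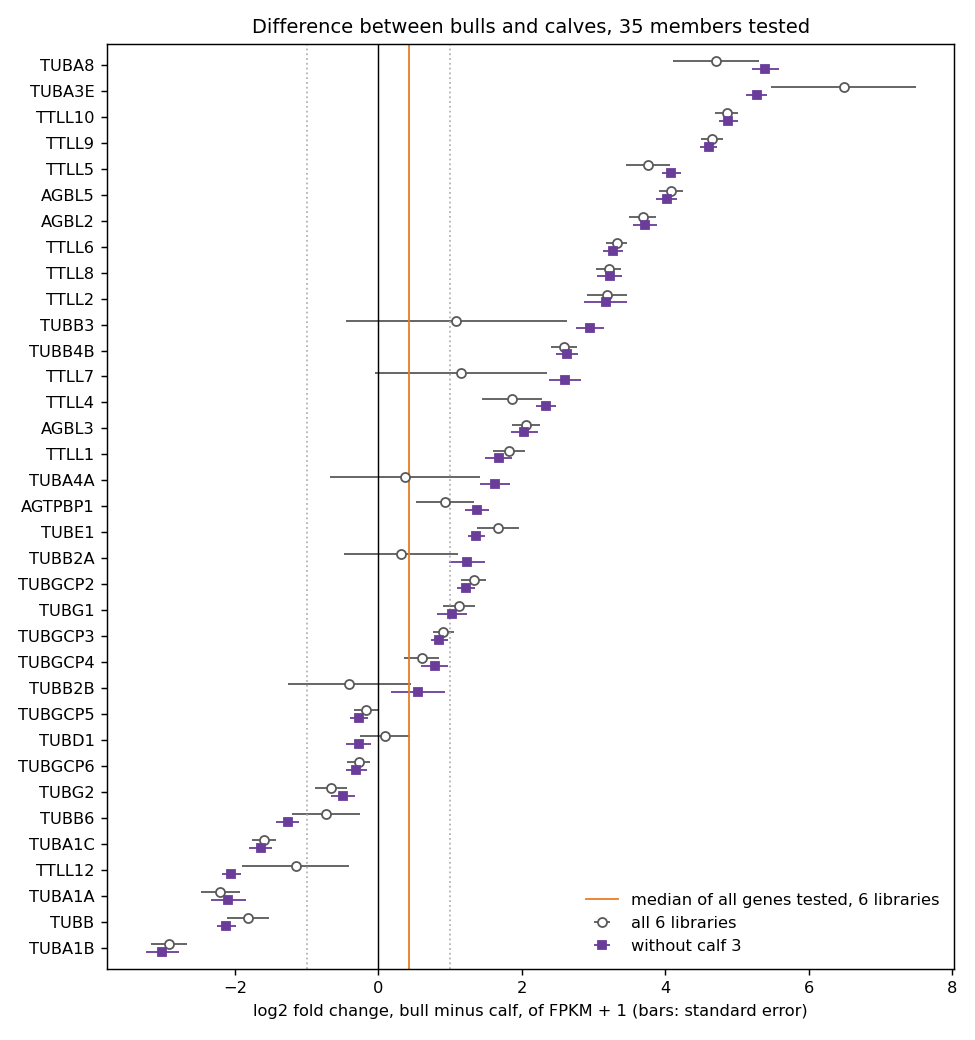
Log2 fold change of FPKM + 1, bull minus calf, of the 35 genes tested, with all 6 libraries (open circles) and without calf 3 (squares), and bars for the standard error. Dotted lines mark the size required for a call and the solid coloured line the median of all genes tested, 0.43. TUBB3, TTLL7, TUBA4A, TUBB2A and TUBB2B have long bars with all libraries, and their squares lie to the right of their circles.

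The call of 7 genes differed between the fits with and without calf 3. Over all genes tested, 45.3% were called with calf 3 and 51.5% without it. TUBA4A, TUBB2A, TUBB3, TTLL7 and AGTPBP1 were called higher, and TUBB6 and TTLL12 lower, without it alone. In the former 5, calf 3 was at 2.94 (AGTPBP1) to 68.6 (TUBB3) times the mean FPKM of calf 1 and calf 2. In TUBB6 and TTLL12 it was at 0.273 and 0.141 times that mean. Calf 3 was the highest of the 6 libraries in 9 of the 40 genes and the lowest in 11. The matching shares over all genes are not given here. All 21 genes called with all libraries kept their call and their direction without calf 3.

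Genes of these families that lie near each other were compared after their values were seen. TUBA1C, TUBA1A and TUBA1B lie in this order on chromosome 5, with 83.5 kb and 38.7 kb between them, and all were called lower in bulls. TTLL8 and TUBGCP6 lie 139 kb apart on the same chromosome, with TTLL8 called higher and TUBGCP6 not called. TUBB2B and TUBB2A lie 30.8 kb apart on chromosome 23. TUBA4A and TUBA1D lie 10.4 kb apart on chromosome 2, and TUBA1D was at most 1.002 FPKM in any library.

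The transcript table held 93 transcripts of the 40 genes, of which 51 passed the filter. Of these, 27 were called higher and 4 lower in bulls, against a background of 34.8% and 9.37% of the 23212 transcripts tested (44.2% in either direction). Without calf 3, 32 were called higher and 6 lower, against 36.1% and 13.1% (49.2% in either direction). The filter was reached only through the bulls by 14 of the 51 transcripts, as by 22.4% of all transcripts tested, so that a difference was built into their entry. In all 40 genes, the FPKM of the gene equalled the sum over its transcripts within 0.001. In 8 genes, this sum included a transcript named as antisense (AS) or overlapping (OT), and without these 8 transcripts the 21 calls were unchanged.

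Tested transcripts of the same gene differed in call or direction in TUBE1, TTLL7 and TUBB2B. In TUBE1, an assembled transcript (TCONS_00362281) was called higher, with an FPKM of 1.34, 0.542 and 0.450 in calves 1 to 3 and 10.96, 10.7 and 11.7 in bulls 1 to 3 (log2 fold change 2.81, adjusted p = 0.000216). The annotated transcript TUBE1-201 (ENSBTAT00000067612) was at 1.02, 4.90 and 1.80 in calves 1 to 3 and 3.36, 1.21 and 1.997 in bulls 1 to 3 and not called (−0.07, adjusted p = 0.913). The assembled transcript made up 71.97% to 78.4% of TUBE1 in bulls and 9.96% to 28.02% in calves.

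In TTLL7, no transcript was called with all libraries. TTLL7-201 (ENSBTAT00000080322) was at 0.553, 3.62 and 25.4 in calves 1 to 3 and 15.5, 16.9 and 11.5 in bulls 1 to 3. TTLL7-205 (ENSBTAT00000086227) was at 0.204, 0.378 and 23.2 in calves 1 to 3 and 6.30, 8.97 and 12.5 in bulls 1 to 3. Both were called higher without calf 3, with log2 fold changes of 2.53 (adjusted p = 0.00612) and 2.95 (adjusted p = 0.000557). TTLL7-202 (ENSBTAT00000004304) was at 1.59, 0.473 and 19.5 in calves 1 to 3 and 0.891, 1.51 and 1.54 in bulls 1 to 3, and was not called without calf 3 either (0.23, adjusted p = 0.512). Calf 3 was the highest library for each of the 3 transcripts.

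In TUBB2B, TUBB2B-203 (ENSBTAT00000008372) was at 6.33, 4.38 and 30.2 in calves 1 to 3 and 18.4, 7.08 and 25.1 in bulls 1 to 3. TUBB2B-202 (ENSBTAT00000005346) was at 12.4, 10.4 and 97.8 in calves 1 to 3 and 14.7, 6.96 and 7.79 in bulls 1 to 3. Their log2 fold changes of 0.58 and −1.26 differed in sign, and neither was called with or without calf 3. TUBB2B-203 made up 23.6% to 33.8% of TUBB2B in calves and 50.4% to 76.3% in bulls, a difference that was not tested.

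TTLL5 had the most tested transcripts, 5, all called higher (background 34.8% of all transcripts tested). Of these, TTLL5-204 and the assembled TCONS_00027623 reached the filter only through the bulls. TTLL5-204 (ENSBTAT00000079397), chosen after its values were seen, was listed at 0 in all 3 calves and at 21.5, 14.7 and 20.2 in bulls 1 to 3. It made up 16.6% to 20.2% of the TTLL5 FPKM in bulls. The most abundant transcript of the gene, TTLL5-201 (ENSBTAT00000079321), was at 2.46, 2.62 and 5.58 in calves 1 to 3 and 46.6, 41.99 and 50.2 in bulls 1 to 3.

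**Figure D4:**
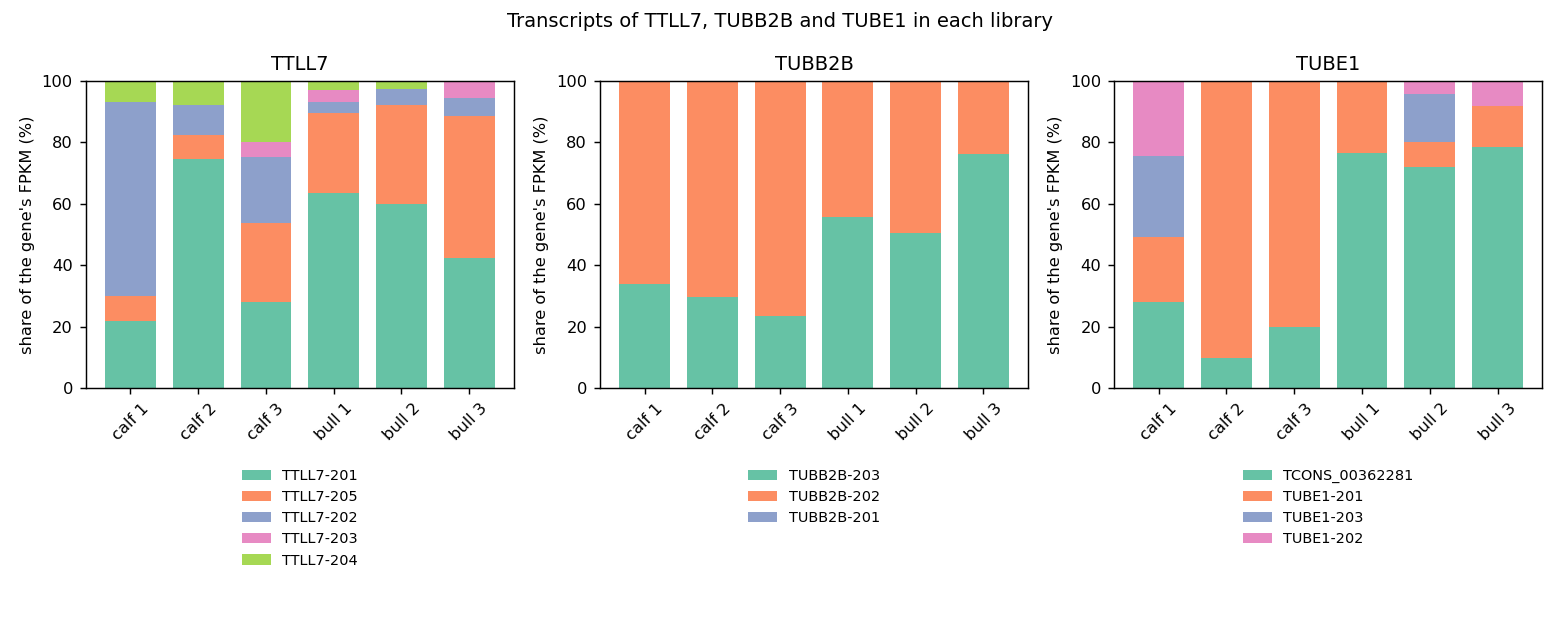
Share of each transcript in the FPKM of TTLL7, TUBB2B and TUBE1, in percent, for each library. In TUBE1 the assembled transcript makes up at least 71.97% in every bull and at most 28.02% in every calf, whereas the shares within TTLL7 vary between calf 1, calf 2 and calf 3.

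Other genes of the tubulin pathway were taken from a list of 35 genes, all of which passed the filter. Of these, 15 were called higher and 3 lower in bulls (background 35.7% and 9.61%), with a median log2 fold change of 0.82 beside 0.43 over all genes tested. Without calf 3, 17 were called higher and 3 lower (background 37.9% and 13.6%). The split depended on the scaling, since 10 were called higher and 8 lower after quantile normalization (background 21.1% and 25.1%), and 11 and 6 after centring on a common median (background 25.9% and 20%, or 46% in either direction). The list holds 5 partners of TTLL1 in its glutamylase complex, of which 4 were called higher and none lower. After quantile normalization 3 were called higher, and TPGS1, whose bulls all lay below all calves, was called lower (−1.30, adjusted p = 0.00491, against −0.71 as deposited). Of 7 folding cofactors, 3 were called higher and none lower, and 1 and 1 after quantile normalization. Of 7 partners of the gamma-tubulin ring, 3 were called higher and none lower, and 2 and 1 after quantile normalization. Of 7 severing factors, 2 were called higher and 1 lower, and 1 and 2 after quantile normalization. Of 9 genes of tyrosination, detyrosination and acetylation, 3 were called higher and 2 lower, and 3 and 3 after quantile normalization.

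KATNAL2, a katanin-like severing enzyme needed for sperm formation in mice, had the largest change of the list. Its FPKM was 0.521, 0.381 and 0.224 in calves 1 to 3 and 33.3, 22.5 and 27.01 in bulls 1 to 3 (log2 fold change 4.37, SE 0.21, adjusted p = 2.23e-05, and 4.29 without calf 3). All calves were below 1 FPKM and lay below all bulls, so that KATNAL2 reached the filter only through the bulls and its direction was built into its entry.

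KIAA0895L and KIAA0895, also known as MATCAP1 and MATCAP2, encode tubulin carboxypeptidases of a family that removes the C-terminal tyrosine of alpha-tubulin. KIAA0895L was at 1.04, 1.28 and 2.12 in calves 1 to 3 and 24.4, 16.7 and 24.5 in bulls 1 to 3 (log2 fold change 3.21, SE 0.25, adjusted p = 0.000135, and 3.39 without calf 3). KIAA0895 was at 0.877, 1.22 and 3.01 in calves 1 to 3 and 20.8, 19.3 and 15.9 in bulls 1 to 3 (log2 fold change 2.94, SE 0.32, adjusted p = 0.000509, and 3.26 without calf 3). TPGS2, a subunit of the TTLL1 complex, was at 3.20, 3.66 and 6.81 in calves 1 to 3 and 43.95, 37.3 and 38.3 in bulls 1 to 3 (log2 fold change 2.93, SE 0.27, adjusted p = 0.000238, and 3.20 without calf 3). C15H11orf49, listed with the partners of TTLL1, was at 3.03, 2.62 and 10.9 in calves 1 to 3 and 40.3, 42.4 and 33.2 in bulls 1 to 3 (log2 fold change 2.82, SE 0.47, adjusted p = 0.00314, and 3.37 without calf 3). In each of these 4 genes calf 3 was the highest of the calves and lay below all bulls.

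The 3 genes called lower were TTL, the ligase that puts the tyrosine back, VASH1, which removes it, and FIGN, a severing enzyme. Their log2 fold changes were −2.04, −2.24 and −1.68, with adjusted p = 0.0231, 0.00158 and 0.00223. They were named after their values were seen. VASH1 and FIGN were below 1 FPKM in all bulls and reached the filter only through the calves, so that their direction was built into their entry, as for 3.47% of all genes tested. Without calf 3, which was the highest library for each, they were −1.40, −1.89 and −1.45 and still called. VASH2, which removes the tyrosine as well, was among the genes called higher (2.003, adjusted p = 0.00228, and 2.18 without calf 3).

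**Figure D5:**
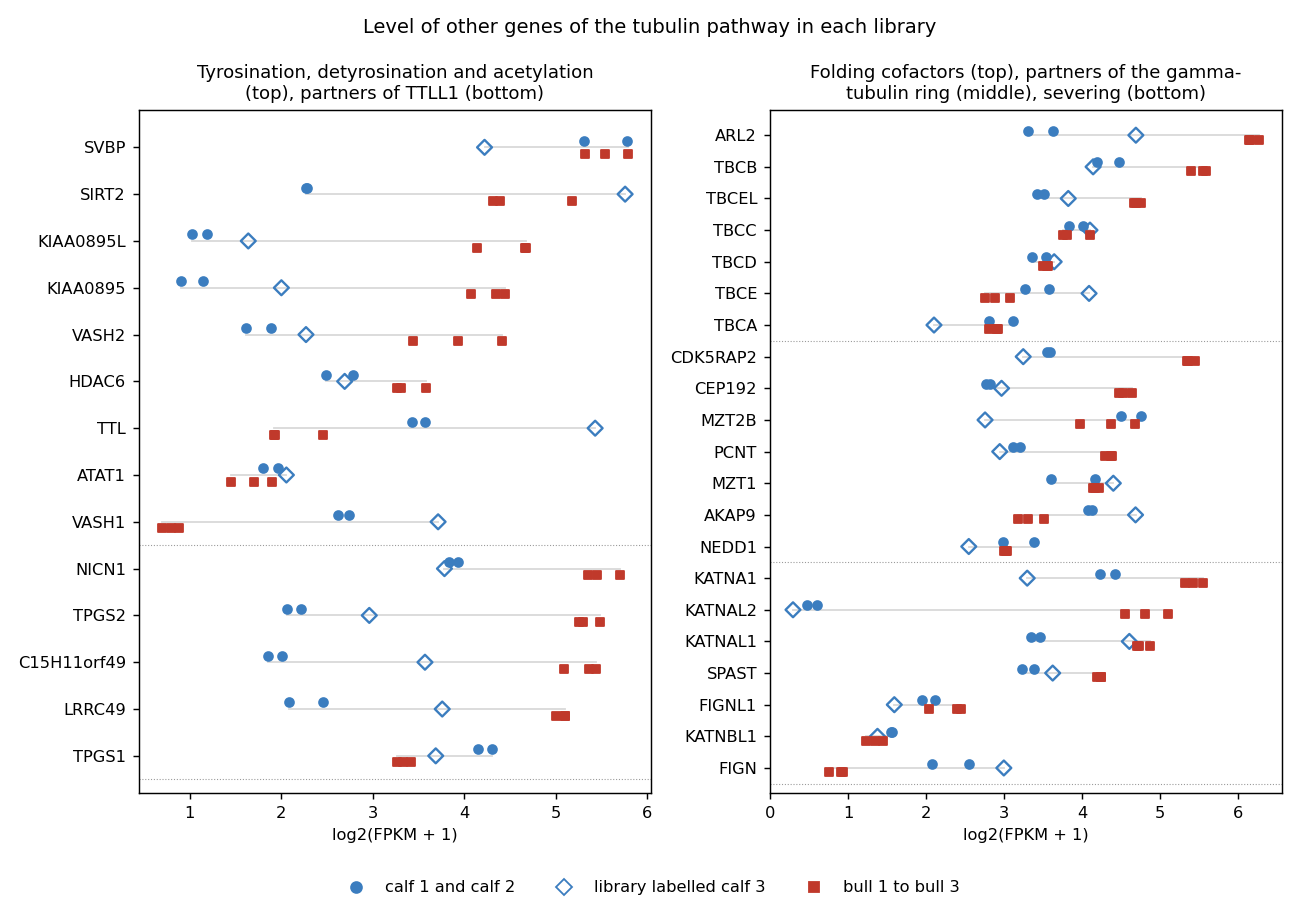
Level of the 35 other genes of the tubulin pathway in each library, as log2(FPKM + 1), with genes of tyrosination, detyrosination and acetylation and partners of TTLL1 on the left, and folding cofactors, partners of the gamma-tubulin ring and severing factors on the right. Symbols are filled circles for calf 1 and calf 2, open diamonds for the library labelled calf 3 and squares for the bulls. KATNAL2 shows the widest gap between calves and bulls, and the squares of TTL, VASH1, FIGN, TPGS1, TBCE and AKAP9 lie to the left of all their calf symbols.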

How the data were processed

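The authors sequenced rRNA-depleted, strand-specific libraries of 6 testis samples, 1 per animal. According to the Methods, reads were mapped with TopHat2 and assembled with StringTie. The authors deposited an FPKM value per gene or transcript and library; the tool that made it and its strand setting are not given in the sources used here. The Methods name UMD3.1.1, but the positions matched ARS-UCD2.0 and are printed as the gene table gives them.

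Libraries were grouped by their labels. FPKM was transformed to log2(FPKM + 1), features that reached 1 FPKM in 3 or more of the 6 libraries were kept, and bulls were compared with calves in limma 3.58.1 (R 4.3.3, eBayes with trend, two-sided), with Benjamini-Hochberg adjustment over all features tested. Calls needed an adjusted p below 0.05 and an absolute log2 fold change of at least 1. Shares were tested by exact permutation for the alpha- and the beta-tubulin with the largest mean FPKM in bulls. Matplotlib 3.10.9 under Python 3.11.15 made the figures. Low FPKM values did not give whole reads, so no count test was run. Tested on simulated data, the procedure recovered 186 of 200 genes changed by a log2 fold change of 2, with 4 false calls among 16778 genes, and 175 of 200 transcripts, with 10 false calls among 20836. The simulated spread was taken without calf 3, and changes were set only in features above a minimum mean level. These rates therefore do not describe the fit that includes calf 3, or low features.

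The 40 genes, the pathway list and the marker lists were chosen with earlier results of these data known. Every gene was named, and values in every library were given for TUBA and TUBB genes reaching an FPKM of 10, for gamma-, delta- and epsilon-tubulin, for the 5 largest increases and the decreases among the other genes tested (only 3 were negative), and for genes whose call differed without calf 3. Of the pathway list, the 5 called genes with the largest absolute log2 fold change were given. Transcripts were given where those tested in a gene differed in call or direction. The locus of 16 of the 40 genes overlapped another row, and reads of overlapping genes cannot be told apart unless the strand was used. No sequences were used here, and some items of the lists are not reported here. Alternatives covered the pseudocount, the filter, the scaling, the replicate block, the prior trend, array weights, leaving out each library, and, chosen after seeing the data, removal of antisense and overlapping transcripts.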

Additional observations from a re-analysis of the deposited data

How the results depend on the processing

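Of the 21 calls, 19 kept their direction and call under all 16 alternatives, and the exceptions were TUBG1 and TUBGCP2, which lost their call after quantile normalization and after centring on a common median. Under these scalings TUBG2 was called lower, and 20 genes were called in all (15 higher and 5 lower). Of all genes, 21.1% were called higher and 25.1% lower after quantile normalization, and 25.9% and 20% after centring. With array weights, 28 genes were called, as without calf 3 (background 51.5% without calf 3). Under the other alternatives, 21 genes were called (background 45.3% in the fit as deposited). Shares over all genes with array weights and under these other alternatives are not given here. The log2 fold change of genes that were not called turned direction in 4 cases. For TUBA4A it was −0.20 after quantile normalization, −0.12 after centring, and −0.27 to 1.63 over the fits that leave out 1 library (−0.27 without calf 1, −0.24 without calf 2 and 1.63 without calf 3). For TUBB2A these values were −0.52, −0.18, −0.21 and −0.08, and leaving out single libraries gave −0.21 to 1.24. For TUBD1 it was −0.47, −0.40 and −0.24 with array weights, and leaving out single libraries gave −0.27 (without calf 3) to 0.36. For TUBB2B it was 0.41 with array weights, and −0.96 to 0.56 (without calf 3) when single libraries were left out. The causes were not tested, and calf 3 was the highest library for TUBA4A, TUBB2A and TUBB2B and the lowest for TUBD1. Relative to the median of all genes tested, the median of the 35 genes was 0.70 as deposited, 0.76 after quantile normalization and 0.70 after centring. The replicate block left 21 calls. The deviations of calf and bull with the same number correlated at 0.0277, 0.0246 and 0.0341, every library correlated best with its own number, and the numbers were not taken as pairs. With no counts, depth limits the lowest values by an unknown amount.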
